A study of Caenorhabditis elegans with 9 samples.

Results

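Transcript signals were described in fed wild-type C. elegans at L4, the larval stage that ends with the molt to the adult. The members are the 3 arrays whose titles name them as wild type, out of 9 arrays in the series. The other arrays came from fed L4 larvae of ogt-1(ok430), which lacks the transferase that puts the sugar O-GlcNAc on proteins, and of oga-1(ok1207), which lacks the enzyme that takes it off, with 3 arrays each. The wild-type animals carry neither allele, and all 3 groups were fed. For every array, 20 larvae were picked by hand at a matched degree of vulval development, and their total RNA was amplified by T7 transcription and hybridised to an Affymetrix array. The arrays are labelled biological replicates, and whether they came from separate cultures is not given, so their spread may in part be technical.

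In L4 hermaphrodites the gonad makes sperm before it switches to oocytes, the vulva takes shape, and the epidermis lays down the adult cuticle under the larval one. The intestine, which digests bacteria and stores fat, begins to make yolk for the oocytes around the passage to adulthood. Sperm of nematodes crawl by means of the major sperm protein, a small protein encoded by many near-identical genes. Each array here read whole animals, so signals from all tissues are summed, and fewer cells of a type and less RNA per cell cannot be told apart.

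Genes were ranked by the mean log2 signal of the 3 wild-type arrays, with 1 probe set (the array's group of short probes for a transcript) per gene, the brightest where there were several. This gave 17118 genes. Signal depends on how well each probe binds as well as on transcript amount, so the order is one of brightness, and small differences in rank carry no meaning: of the 855 neighbouring pairs among the strongest genes, only 2 were separated by more than the larger SD of the pair. A gene was called strong in the top 5% (856 genes, mean of at least 9.64). It was called near background at or below 5.44, the 90th percentile of 1276 chemoreceptor genes, which are made in few neurons each, and moderate in between. The strong bound is 18.3 times the background bound on the linear scale.

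By these bounds 856 genes were strong, 7323 (42.8%) were moderate and 8939 (52.2%) were near background, with means from 3.59 to 14.72. The 32 probe sets for Bacillus and yeast control transcripts read 3.73 to 5.36 and all lay at or below the background bound. Of all genes, 218 reached a mean of 12 and 97 a mean of 13. The members just inside the strong bound were rps-20, lep-5 and mup-2, each at 9.64, and those just outside were ndua-13 at 9.64, lin-52 at 9.63 and sdz-27 at 9.62. At the background bound glt-3, cyp-32A1 and F35E12.2 lay just above and fbxa-178, oac-40 and sdz-37 just below, all at 5.44 when rounded. The arrays were alike in technical measures: all had a mean of 5.91, the SD over probe sets was 1.76, 1.76 and 1.79 in arrays 1, 2 and 3, and across genes, which are not independent replicates, they correlated at r = 0.994, 0.990 and 0.994. The actin control read higher at its 3′ than its 5′ end by 4.73, 4.82 and 4.75 in log2, and the GAPDH control by 3.29, 3.31 and 3.13. The ends are read by different probe sets, so the reach of amplification and probe binding cannot be told apart.

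**Figure D1:**
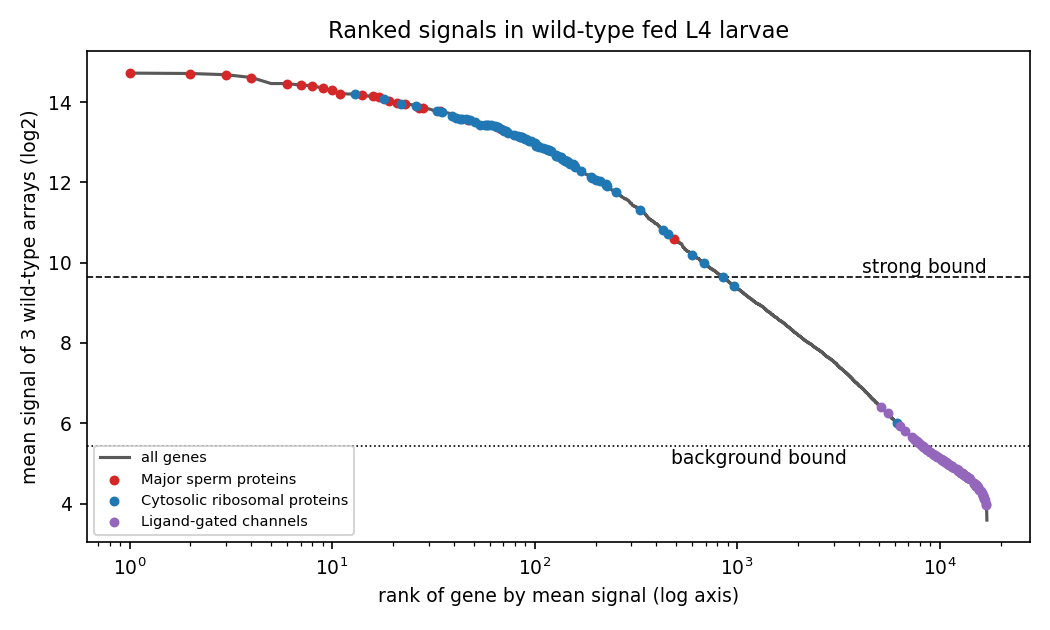
Mean log2 signal of the 3 wild-type arrays (vertical axis) against the rank of each of 17118 genes (log axis), with members of 3 gene lists as coloured points. Major sperm protein and ribosomal protein genes lie at the bright end, above or close to the strong bound of 9.64 except for rpl-42 at 6.0, and ligand-gated channel genes lie around and below the background bound of 5.44.

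The brightest genes of the L4 larva were those of sperm, ribosomes and cuticle. Among the 30 brightest, 18 encode major sperm proteins, 4 ribosomal proteins and 4 cuticle collagens, and the other 4 were the small heat shock protein gene sip-1, the yolk protein gene vit-5, the lysozyme gene ilys-5 and ule-4. The top of the ranking was msp-53, with 14.74, 14.77 and 14.65 in arrays 1, 2 and 3, next to msp-55 with 14.61, 14.75 and 14.76. The 2 genes overlap across arrays, so neither is the brighter. Rank 5 was the collagen col-93 with 14.41, 14.47 and 14.51. Of the 100 brightest genes 35 were ribosomal, 21 were major sperm proteins and 7 were collagens, and 21 stood in none of the 52 gene lists used here. Genes known only by a sequence name made up 12 of the top 100, 20.0% of the strong genes and 39.2% of all genes.

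Probe type bears on that order. Affymetrix marks with _x_at and _s_at those probe sets whose probes also bind related transcripts, and 24 of the 30 brightest genes were read by _x_at and 4 by _s_at sets, with rpl-17 and ule-4 the exceptions. Among strong genes 15.1% were read by _x_at sets, against 3.9% of all genes. All 23 major sperm protein genes were read by such sets, so the signal of a single copy cannot be told from that of its near-identical relatives. The 1 plain probe set for a major sperm protein, of msp-32, read 4.61 to 4.81, near background, while the _x_at set of the same gene read 10.46, 10.64 and 10.68. Where a gene had several probe sets (2981 genes), their means differed by a median of 1.21, and of 304 such strong genes 22 had their dimmest set at or below the background bound. With plain probe sets only, the brightest genes were rpl-17 at 13.95, ule-4 at 13.83, rps-3A at 13.77, the transthyretin-related gene ttr-16 at 13.73 and the collagen col-80 at 13.59.

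Genes of the germ line were bright as a group. All 23 major sperm proteins were strong, with a median of 14.14, against a median of 5.37 over all genes. Of 16 genes for small sperm proteins 10 were strong and 5 moderate, led by nspd-2 with 12.98, 13.12 and 13.16. Genes with known roles in making or activating sperm were much dimmer: 3 of 36 were strong, 23 moderate and 10 near background. The strong ones were swm-1, a protease inhibitor that holds back sperm activation (10.37, 10.26 and 10.82), and gsp-3 and gsp-4, protein phosphatase 1 genes of sperm (10.22 ± 0.43 and 9.72 ± 0.54, SD, n = 3). Array 1 was the lowest for gsp-3 and gsp-4, and array 2 for swm-1.

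Oocyte genes were bright as well in these larvae. Of 35 oocyte and eggshell genes 20 were strong and 15 moderate, with a median of 9.98. The leaders were perm-4 (13.19, 13.06 and 13.01) and perm-2 (13.22, 12.81 and 12.96), needed for the permeability barrier of the eggshell, and cpg-2, a chondroitin proteoglycan of the eggshell (12.69, 12.71 and 12.55). The dimmest member was cpb-1, an RNA-binding protein of the CPEB family, at 6.60 to 6.61. Of 49 germ granule and meiosis genes 4 were strong and 43 moderate, with the helicase glh-1 of germ granules at 11.97 ± 0.12 and the RNA-binding protein gene car-1 at 11.96 ± 0.20 (SD, n = 3). Of 38 replication and mitosis genes 6 were strong and 30 moderate, led by the cyclin gene cyb-3 at 11.68 ± 0.09, the kinetochore gene knl-1 at 11.18 ± 0.12 and the ribonucleotide reductase gene rnr-2 at 10.66 ± 0.23 (SD, n = 3). The linker histone hil-5 was the brightest of 35 histone genes, of which 8 were strong, at 12.91 ± 0.08 (SD, n = 3).

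Lists for cells or stages that should be scarce in staged hermaphrodite larvae were dim. Of 18 genes switched on in early embryos none was strong and 13 were near background, with a median of 4.78 and a highest mean of 5.87, that of elt-1, a GATA factor of the epidermal lineage. The endoderm factor genes end-3 and end-1 read 5.68 and 5.62. Of 12 genes of male neurons and tail 11 were near background, and the exception was cwp-5 at 5.79 ± 0.10 (SD, n = 3). The polycystin gene lov-1 of male sensory neurons read 5.15, 5.30 and 5.26, below the bound in each array.

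The machinery of protein synthesis was the brightest of the housekeeping groups. Of 75 cytosolic ribosomal protein genes 73 were strong, with a median of 12.89. The brightest were rpl-21 (14.23, 14.15 and 14.22), rps-2 (14.05, 14.13 and 14.07) and rpl-17 (13.96, 13.86 and 14.04), and the dimmest was rpl-42 at 6.0 ± 0.16 (SD, n = 3). Of 37 translation factor genes 12 were strong, led by the elongation factors eef-1A.1 at 13.47 ± 0.15 and eef-1B.1 at 13.22 ± 0.03 (SD, n = 3). Next to them stood iff-1, which encodes an eIF5A factor of the germ line, at 13.15 ± 0.16 (SD, n = 3). The 59 mitochondrial ribosomal protein genes were mostly moderate (52 of 59), with a median of 6.88.

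Energy and protein turnover genes lay in the upper part of the range. Of 66 respiratory chain and ATP synthase genes 24 were strong and 39 moderate, with a median of 8.99, and the cytochrome c gene cyc-2.1 read 12.28, 12.20 and 12.23. Of 22 citric acid cycle genes 7 were strong and none near background, and citrate synthase cts-1 read 11.64 ± 0.20 (SD, n = 3). In glycolysis 4 of 16 were strong, among them the glyceraldehyde-3-phosphate dehydrogenases gpd-2 at 12.80 ± 0.05 and gpd-3 at 11.49 ± 0.10 and the aldolase aldo-2 at 12.02 ± 0.19 (SD, n = 3), while the hexokinases hxk-2 and hxk-3 read 5.58 and 5.28. All 33 proteasome genes lay above background, 13 of them strong, led by the core subunit pas-3 at 12.19 ± 0.09 (SD, n = 3).

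Chaperones ranged from the top of the ranking to its foot. The small heat shock protein sip-1 read 14.26, 14.28 and 14.08, hsp-90 read 12.54, 12.61 and 12.42, and the constitutive hsp-1 read 12.21, 12.19 and 12.06. The heat-inducible genes hsp-16.41, hsp-16.2 and hsp-70 were all near background, at 4.44, 4.43 and 4.04. Of 59 chaperone genes 8 were strong and 18 near background, the dimmest being the DnaJ genes dnj-7 and dnj-27 at 3.85 and 3.84.

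Intestinal genes were strong or moderate in nearly all cases. Of 36 intestine genes 19 were strong and 16 moderate, with a median of 9.86, and only the P-glycoprotein gene pgp-1 (4.67) was near background. The aspartic protease asp-1 read 12.77, 12.87 and 12.92, and far-2, a fatty acid and retinol binding protein, read 12.65, 12.65 and 12.66. Among 26 cysteine and aspartic proteases 12 were strong, with asp-5 at 12.12 ± 0.09 and asp-3 at 12.05 ± 0.12 (SD, n = 3), and 6 were near background, with asp-15 dimmest at 4.10.

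All 5 measured vitellogenin genes, which encode yolk proteins made in the intestine, were strong. The brightest was vit-5 with 14.04, 13.76 and 13.73, then vit-4 with 13.88, 13.69 and 13.78 and vit-6 with 13.60, 13.31 and 13.38. Below these 3 on every array lay vit-1 at 11.33 ± 0.04 and vit-2 at 10.83 ± 0.21 (SD, n = 3). The probe sets of vit-5 and vit-4 (_x_at) and of vit-6 (_s_at) can also bind related transcripts, while vit-1 and vit-2 are read by plain sets. A difference between these genes and one between their probe sets cannot be told apart. Array 1 was the highest for vit-5, vit-4, vit-6 and vit-1 and array 3 for vit-2. Of the genes listed under fat synthesis and elongation 7 of 22 were strong, led by the fatty acid elongase elo-5 at 11.54 ± 0.16 and by let-767, a steroid dehydrogenase family enzyme, at 11.13 ± 0.06 (SD, n = 3). The strong members include acdh-1 at 10.95 ± 0.31 (SD, n = 3), an acyl-CoA dehydrogenase gene known from propionate breakdown and not from synthesis. The lipid-binding protein lbp-2 stood at 12.69 ± 0.10 (SD, n = 3).

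Collagens covered the whole range of signals. Of 148 cuticle collagen genes 35 were strong, 66 moderate and 47 near background. At the bright end col-93 read 14.46 ± 0.05, col-124 read 14.15 ± 0.01 and col-119 read 13.94 ± 0.10 (SD, n = 3), and at the dim end sqt-1 read 4.15 and col-40 read 4.29. Genes that remodel the cuticle or act in molting were dim: none of 93 was strong and 75 were near background, and the brightest were the astacin protease gene nas-20 at 8.46 ± 0.36 and the convertase gene bli-4, which processes collagens, at 8.41 ± 0.12 (SD, n = 3). Of 79 hedgehog-related and patched-related genes 55 were near background and 2 strong, grd-10 (11.57, 11.63 and 11.25) and grd-5 (10.63, 10.56 and 10.30).

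Muscle genes were mostly above background, with 14.6% near it, against 52.2% of all genes. Of 41 muscle filament and attachment genes 14 were strong and 21 moderate. They were led by the troponin C gene pat-10 with 13.14, 13.18 and 13.36 and the actin genes act-3 and act-4, at 11.87 and 11.80, whose near-identical sequences the probes may not separate. The myosin heavy chain gene unc-54 of body wall muscle read 10.20, 10.40 and 11.19, with array 3 the highest. Of 26 pharynx genes 16 (61.5%) were near background, not far from the share of all genes, and the strong ones were lys-8 at 10.55 ± 0.09 and dod-6 at 10.19 ± 0.30 (SD, n = 3).

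Lists of synaptic and peptide genes had shares near background close to the 52.2% of all genes. The other neuronal lists, of receptors, channels and cilium genes, had larger shares. Of 47 synaptic and transmitter genes none was strong, 23 were moderate and 24 (51.1%) near background, with the synaptobrevin gene snb-1 brightest at 9.30, 9.45 and 9.66. Dimmest were rgef-1 and the touch neuron gene mec-18, both at 4.2. Of 25 FMRFamide-like peptide genes 13 were moderate and 48.0% near background, led by flp-9 at 7.82 ± 0.28 (SD, n = 3), and flp-21 read 3.70 to 3.81. Among 58 other genes named as neuropeptide-like proteins 6 were strong, led by nlp-27 (13.10, 12.95 and 13.01), nlp-28 (12.17, 12.23 and 12.40) and nlp-31 (11.71, 11.62 and 11.41). These belong to a group of peptides made in the epidermis and known for antimicrobial roles. The 3 are read by _x_at probe sets, and with plain probe sets none of 41 genes of the list was strong, with a median of 4.8. Of 24 insulin-like peptide genes 12 were moderate, 12 were near background and none was strong, with ins-5 brightest at 7.15 ± 0.06 (SD, n = 3) and the dauer-pathway ligand daf-28 at 4.35.

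Receptors and channels lay close to the background bound. None of 89 ligand-gated channel genes was strong and 78 were near background, and the GABA receptor gene unc-49, which acts in muscle, was brightest at 6.56, 6.25 and 6.40. The chemoreceptors set the bound, so their own split is fixed, and the brightest was srsx-34 at 6.64 ± 0.21 (SD, n = 3). Of 36 cilium genes 29 were near background, and the list was led by daf-19, the RFX factor of ciliated neurons, at 8.26 ± 0.18 (SD, n = 3). The dimmest cilium gene was che-11 of intraflagellar transport at 3.86.

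**Figure D2:**
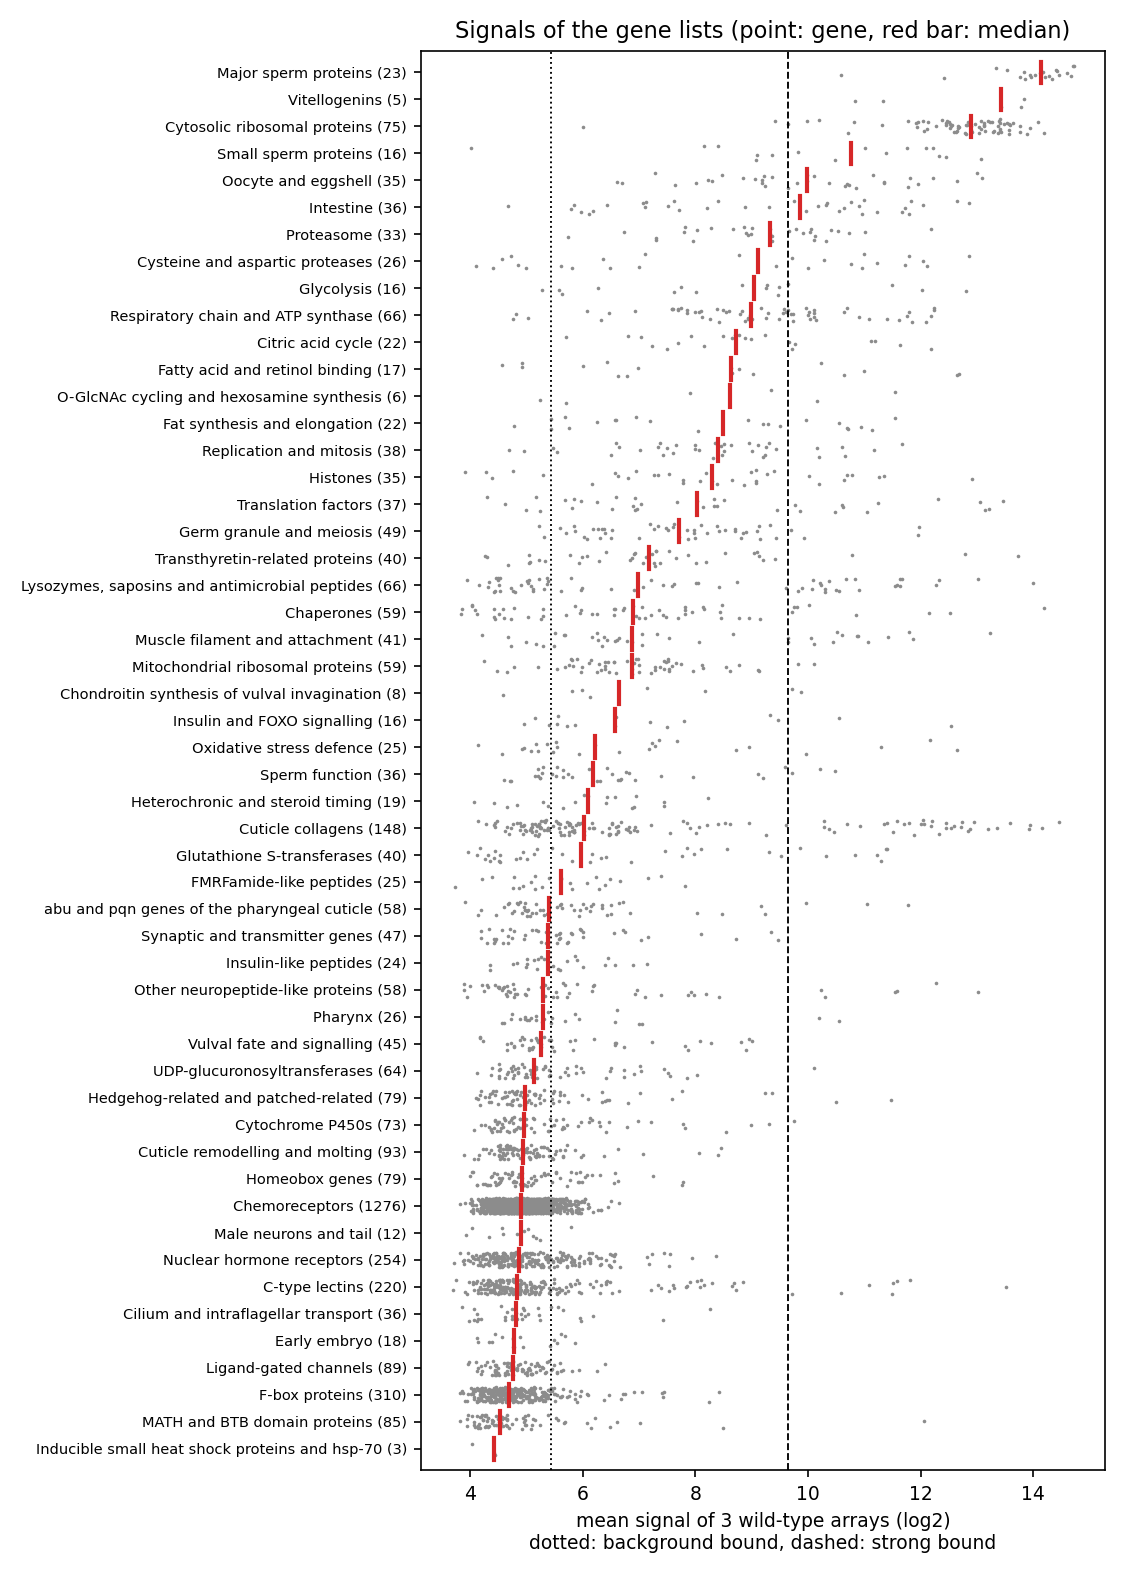
Mean log2 signal of the 3 wild-type arrays (horizontal axis) for every measured member of each gene list, with the number of members in brackets and the median as a red bar. Medians run from 14.14 for major sperm proteins to 4.43 for inducible heat shock genes, and collagens, lysozymes and C-type lectins spread over most of the range.

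The larvae had been staged by the vulva. Of 45 vulval fate and signalling genes none was strong, 19 were moderate and 26 (57.8%) near background, close to the 52.2% of all genes. With plain probe sets, under a strong bound set among 13618 genes, 2 of 33 were strong. The brightest were lag-1, the transcription factor of Notch signalling, at 9.0 ± 0.08, fos-1, which acts in anchor cell invasion, at 8.96 ± 0.20, and sli-1, a Cbl homologue that restrains the EGF receptor, at 8.91 ± 0.07 (SD, n = 3). The Wnt ligand cwn-2 and the TCF factor pop-1 read 4.17 and 4.18. Of the 8 sqv genes, which act in making chondroitin and are needed for the vulva to invaginate, sqv-4 (9.85, 9.80 and 9.96) and sqv-5 (9.83, 9.72 and 9.61) were strong, sqv-7, sqv-2, sqv-1, sqv-8 and sqv-3 were moderate between 5.81 and 8.17, and sqv-6 was near background at 4.59. Among 19 heterochronic and steroid timing genes 13 were moderate, with lin-41 at 8.50, 8.24 and 7.95. The early larval gene lin-14 was dimmest, at 4.13, 4.04 and 4.08.

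Regulatory families were near background in the main. Of 254 nuclear hormone receptor genes 189 were near background and none strong, and nhr-49, a regulator of fat metabolism, was brightest at 8.37 ± 0.12 (SD, n = 3). Of 79 homeobox genes 57 were near background, with ceh-20 brightest at 7.78 ± 0.13 (SD, n = 3). Of 310 F-box genes 278 were near background and none was strong. In the MATH and BTB group 73 of 85 were near background, but bath-42, read by an _s_at probe set, stood apart from its relatives at 12.11, 12.02 and 12.07, and the next, bath-44, read 8.46, 8.51 and 8.50. Among 16 genes of insulin and FOXO signalling the brightest was the 14-3-3 gene par-5, at 12.54 ± 0.16 (SD, n = 3). The enzymes of O-GlcNAc cycling were not bright in the wild type: ogt-1 read 7.96, 7.91 and 7.83 and oga-1, near background, read 5.38, 5.30 and 5.08. Upstream of them the glutamine-fructose-6-phosphate amidotransferases gfat-2 and gfat-1, which start hexosamine synthesis, were strong at 11.55 ± 0.05 and 10.16 ± 0.20 (SD, n = 3).

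Defence and detoxification families differed in how many members were bright. Of 66 lysozyme, saposin and antimicrobial peptide genes 23 were strong (34.8%, against 5.0% of all genes) and 27 (40.9%) near background, with ilys-5 between 13.95 and 14.04 and fipr-21 at 12.29, 12.16 and 12.52. Of 220 C-type lectins 163 were near background and 8 strong, led by clec-87 (13.68, 13.54 and 13.30). Of 73 cytochrome P450 genes cyp-35C1 alone was strong, at 9.76 ± 0.06, and of 64 UDP-glucuronosyltransferases ugt-22 alone, at 10.10 ± 0.13 (SD, n = 3). Glutathione S-transferases were strong in 7 of 40 and near background in 42.5%, led by gst-27 at 11.40 ± 0.19, gst-5 at 11.39 ± 0.15 and gst-4 at 11.30 ± 0.21 (SD, n = 3), whose arrays overlap. In oxidative stress defence, with 8 of 25 near background, the thioredoxin trx-2 at 12.64 ± 0.09 and the peroxiredoxin prdx-2 at 12.17 ± 0.06 were strong, and sod-5 at 4.56 ± 0.14 (SD, n = 3) was near background.

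The 3 wild-type arrays agreed closely on most genes. The median range over the 3 arrays was 0.23 for strong, 0.245 for moderate and 0.166 for near-background genes. Of the strong genes 365 (42.6%) spanned under 0.2. The steadiest were the collagens col-124 (14.15, 14.14 and 14.15) and col-106 (12.96, 12.94 and 12.94), the actin-severing cofilin gene unc-60 (11.05, 11.06 and 11.06), far-2 and ZK813.3. Ribosomal protein genes spanned a median of 0.14, and rps-7 varied most among them, with 9.05, 9.52 and 9.69.

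A small set of genes differed widely between arrays of the same strain. Of the 8179 genes above background, 129 (1.58%) spanned at least 1 log2 unit, 17 of them strong, and 108 stood in no gene list. The widest were nspe-1, of a nematode-specific peptide family, with 7.26, 6.72 and 8.99, the C-type lectin clec-47 with 7.12, 8.49 and 6.38, and the antimicrobial peptide gene cnc-3 with 9.0, 8.09 and 6.94. Array 3 was far above the other two for nspe-1, nspb-6 (6.48, 6.64 and 8.47), C40H1.7 (5.14, 5.05 and 6.86), B0348.2 (5.17, 5.01 and 6.61) and the alcohol dehydrogenase gene adh-1 (9.67, 9.79 and 11.40). It was below them for kreg-1 (8.68, 8.93 and 7.39) and the claudin-like gene clc-19 (9.92, 10.16 and 8.66).

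Of the 20 widest genes 4 were caenacins, antimicrobial peptides made in the epidermis, and each was highest in array 1 and lowest in array 3. These 4 were picked by their range. Of the 8 caenacins measured, 5 lay above background, and the one not picked, cnc-8, read 10.25, 9.97 and 10.02. The values in arrays 1, 2 and 3 were 9.0, 8.09 and 6.94 for cnc-3, 10.59, 10.13 and 8.97 for cnc-2, 11.09, 10.44 and 9.58 for cnc-4, and 7.77, 6.94 and 6.04 for cnc-7. In the order of protein-coding genes in the RefSeq annotation (assembly WBcel235) cnc-4, cnc-3 and cnc-2 are neighbours. The probe sets of cnc-2 and cnc-3 (_x_at) and of cnc-7 (_s_at) can also bind related transcripts, and cnc-4 is read by a plain set. There were 3 other runs of neighbours among the widely varying genes, each a pair: F36A4.4 with F36A4.3, spch-1 with nsph-3.2, and pud-3 with pud-4.

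**Figure D3:**
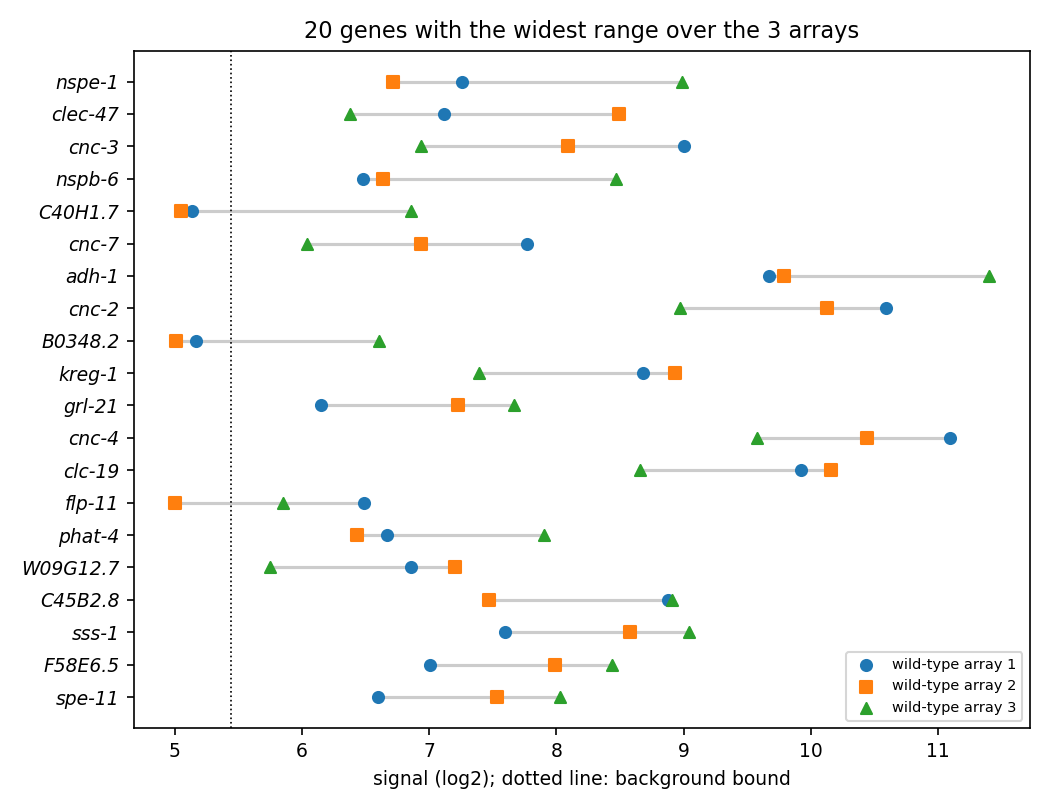
Log2 signal in each of the 3 wild-type arrays for the 20 genes above background with the widest range, with the background bound as a dotted line. The ranges run from 2.27 for nspe-1 to 1.43 for spe-11, and the 4 cnc genes have the same order of arrays.

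Most of the widely varying genes shared an order of arrays: 82 of the 129 (63.6%) were lowest in array 1 and highest in array 3, against 22.3% of all genes above background. Another 19 were lowest in array 2 and highest in array 3, and 15 were highest in array 1 and lowest in array 3. With an array left out, 33 genes spanned 1 log2 unit without array 1, 14 without array 3 and 109 without array 2. The span of a gene cannot widen when an array is left out. The larger drops without arrays 1 and 3 therefore restate this order and are no separate evidence for it.

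Sperm genes were among the lists with this order. Of 26 sperm function genes above background 16 were lowest in array 1 and highest in array 3, with median deviations from the 3-array mean of -0.26, 0.09 and 0.19 in arrays 1, 2 and 3. The widest was spe-11, a sperm-supplied gene needed by the embryo, with 6.60, 7.53 and 8.03, and gsp-4 read 9.14, 9.84 and 10.20. Of 15 small sperm protein genes 11 had the same order, with medians of -0.24, 0.08 and 0.20, and sss-1 read 7.60, 8.58 and 9.04. Of 23 major sperm proteins 19 had it, with smaller medians of -0.13, 0.02 and 0.12. After quantile normalization of the 3 arrays the medians of sperm function genes were -0.26, 0.10 and 0.17 and those of the major sperm proteins -0.08, 0.02 and 0.03. The hybridisation controls read 9.10, 9.02 and 9.20, and their part in this order was not tested.

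The same order was common in lists of other tissues. It held for 9 of 14 fatty acid and retinol binding genes (64.3%), with medians of -0.08, -0.04 and 0.09, for 11 of 20 cysteine and aspartic proteases (55.0%), for 19 of 35 intestine genes (54.3%) and for 9 of 19 genes of fat synthesis (47.4%). Sperm function genes stood at 61.5%, small sperm proteins at 73.3% and major sperm proteins at 82.6%. Of 101 collagens above background 50 were lowest in array 1 and highest in array 3, with medians of -0.11, 0.04 and 0.07, and col-39 read 8.64, 9.23 and 9.89. Muscle genes had medians of -0.08, -0.10 and 0.14, close together in arrays 1 and 2. Of 35 muscle genes 28 were highest in array 3, 12 (34.3%) were also lowest in array 1, and 0 had the reverse order. Oocyte genes ran the other way, 18 of 35 (51.4%) being highest in array 1 and lowest in array 3, with medians of 0.09, -0.03 and -0.06. So did 9 of 13 heterochronic genes (69.2%), with medians of 0.11, -0.01 and -0.10. Among all genes above background 21.9% had this reverse order. Deviations as large as those of the sperm lists were found in peptide genes, with other orders. FMRFamide-like peptide genes were highest in array 1 and lowest in array 2, with medians of 0.27, -0.17 and -0.05, and flp-11 read 6.49, 5.0 and 5.85. Insulin-like peptide genes had medians of 0.23, -0.01 and -0.09, and ins-11 read 6.54, 6.27 and 5.23. Lists overlap, with 49 genes in more than 1, so their counts are not independent. The intestine list shares asp-1 and asp-3 with the proteases and far-2 with the fatty acid binding genes. The oocyte and heterochronic lists share lin-41.

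**Figure D4:**
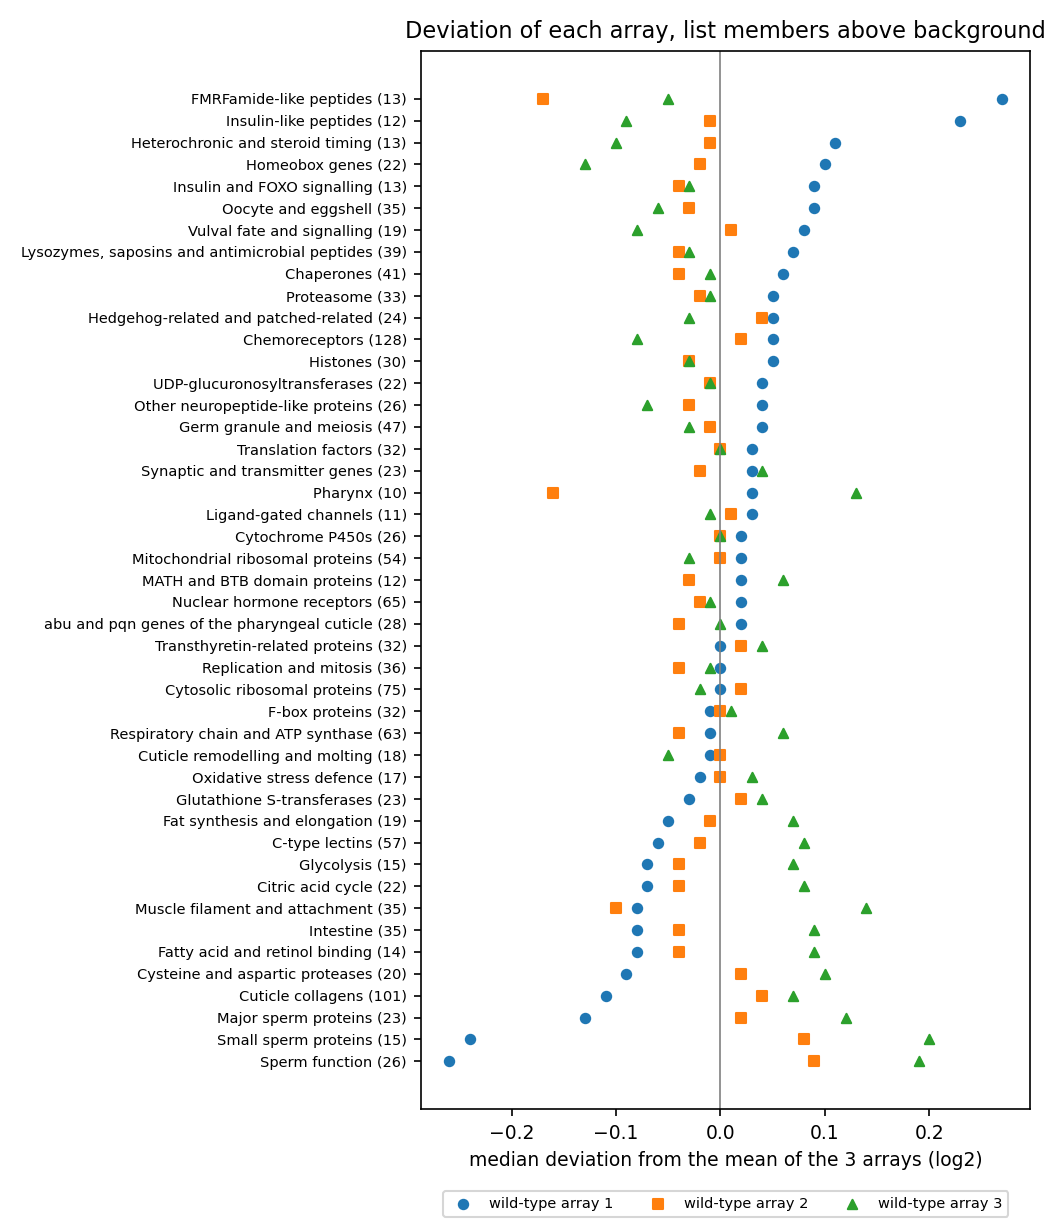
Median deviation of each wild-type array from the mean of the 3 arrays (log2), over the members of each list that lie above background, whose number is in brackets. Array 1 lies lowest and array 3 highest for the sperm lists (down to -0.26 and up to 0.20), and array 1 lies highest for the FMRFamide-like (0.27) and insulin-like peptides (0.23).

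**Figure D5:**
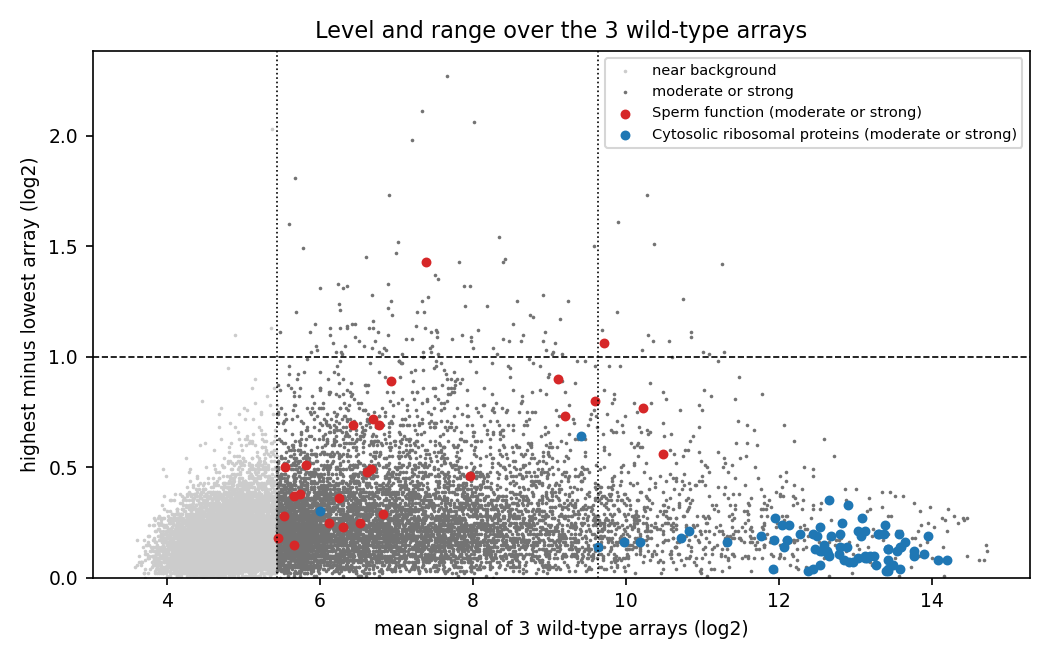
Highest minus lowest wild-type array (log2, vertical axis) against the mean signal (horizontal axis) for all genes, with sperm function and ribosomal protein genes above background in colour, the bounds of 5.44 and 9.64 dotted and the span of 1 dashed. Ribosomal protein genes are bright and steady, with a median range of 0.14, and sperm function genes spread up to 1.43, with a median range of 0.49.

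Genes that varied widely in the wild type did so more often than other genes within the mutant groups, though most did not. Of the 129 genes, 19 (14.7%) spanned at least 1 log2 unit over the 3 ogt-1 arrays and 24 (18.6%) over the 3 oga-1 arrays, against 1.19% and 0.88% of all genes above background, and 8 did so in both mutants. Their median range was 0.39 in ogt-1, 0.63 in oga-1 and, by selection, 1.12 in the wild type. For sperm function genes above background the median range was 0.28 in ogt-1, 0.33 in oga-1 and 0.49 in the wild type, where the median over all genes above background was 0.28, 0.30 and 0.24 in those groups. C40H1.7 spanned 1.85 in ogt-1, 1.35 in oga-1 and 1.81 in the wild type. The cnc-7 gene spanned 0.28, 1.57 and 1.73, and spe-11 spanned 0.09, 0.70 and 1.43, in that order of groups.

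Most genes that were strong in the wild type were also strong in the mutants. Of the 856, 711 were among the 856 brightest genes of ogt-1 mutants and 806 among those of oga-1 mutants, and of the 30 brightest 25 and 27 were shared. The median absolute log2 difference of the strong genes from the wild type was 0.38 in ogt-1 and 0.13 in oga-1. With limma, 434 strong genes (50.7%) differed in ogt-1 mutants at an adjusted p under 0.05, 187 higher and 247 lower, where 18.4% of all genes were called, 8.6% higher and 9.76% lower. The share was 31.2% among moderate and 4.73% among near-background genes. The ranking and the test share the wild-type arrays, so these counts are a description.

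The 3 largest called differences of strong genes in each direction gave 6 genes. The gene F49F1.5 read 12.33, 11.78 and 12.10 in ogt-1 mutants, against 9.69, 9.66 and 10.11 in the wild type, a log2 difference of 2.25 (SE 0.18, limma adjusted p = 8.4e-06). The acyl-CoA dehydrogenase gene acdh-1, known from the breakdown of propionate, read 10.42, 7.95 and 9.40 in ogt-1 mutants, against 11.08, 11.18 and 10.60 in the wild type, lower by a log2 difference of -1.69 (SE 0.45, limma adjusted p = 0.021). The groups do not overlap for either gene, but acdh-1 spans 2.47 within ogt-1 mutants, and its call was lost without wild-type array 1 or 2. The others named by size were dod-6 (2.21), mbug-1 (2.17), the kynureninase gene kynu-1 (-1.84) and pud-3 (-3.15), all called with any single array left out.

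In oga-1 mutants 6 strong genes (0.701%) were called by limma, 3 higher and 3 lower, where 0.263% of all genes were called, 0.199% higher and 0.0643% lower. The share was 0.464% among moderate and 0.0559% among near-background genes, so the strong genes lay near the moderate ones. The gene mbug-1 read 11.13, 11.02 and 10.76 in oga-1 mutants, against 9.99, 9.99 and 9.75 in the wild type, a log2 difference of 1.06 (SE 0.12, limma adjusted p = 0.0050), and it kept its call with any single array left out. C14C6.5 read 13.07, 13.02 and 12.91 in oga-1 mutants, against 12.26, 12.23 and 11.77 in the wild type (limma adjusted p = 0.010). F23F12.12 read 8.47, 8.33 and 8.51 in oga-1 mutants, against 10.37, 10.38 and 9.58 in the wild type (limma adjusted p = 0.0088). The peptide gene nlp-33 read 9.54, 9.35 and 9.20 in oga-1 mutants, against 10.43, 10.39 and 10.08 in the wild type (limma adjusted p = 0.0088). The groups do not overlap for any of these. The other two were the saposin-like gene spp-18, higher by 0.60, and F15E6.4, lower by a log2 difference of -1.50, and they kept the call in only 2 and 3 of the 9 fits with an array left out. C14C6.5 lost its call without oga-1 array 1, and F23F12.12 and nlp-33 lost theirs without wild-type array 1 or 2. The count of 6 was 2 without wild-type array 1 or 2, 3 without oga-1 array 1 and 11 without ogt-1 array 1. Of the 129 widely varying genes 57 (44.2%) passed the limma test in ogt-1 mutants, with 49 higher and 8 lower, where 33.3% of genes above background and 18.4% of all genes passed. In oga-1 mutants 0 of the 129 passed limma's adjusted test, where 0.5% of genes above background passed. An unadjusted p under 0.05 was found for 20 of them (15.5%, against 21.9% of genes above background). The 129 were picked by their spread over wild-type arrays that also enter limma's estimate of spread. That choice lowers their calls in advance, so the counts for both mutants are a description.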

How the data were processed

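Expression was measured on 9 Affymetrix C. elegans arrays, 3 per strain. The deposited table holds log2 signals for 22625 probe sets. The means of the 3 wild-type arrays agree at 5.91, so these arrays appear to have been put on a common scale before deposit. The log base was taken from the range of the values. Partek, RMA and MAS5 appear in the submitters' processing notes, with no role stated. The 77 control probe sets were left out. Of the rest, 20766 named 1 gene (20701 matched to RefSeq, assembly WBcel235), 887 several and 895 none. The probe set with the highest wild-type mean stood for a gene. The number of arrays limits the precision.

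Mutants were compared with the wild type by limma 3.58.1 in R 4.3.3 (lmFit, eBayes) on all 9 arrays and 22548 probe sets, two-sided, with Benjamini-Hochberg adjusted p under 0.05. The fit was tested on simulated data. Named genes are the 30 brightest, the 3 strongest, 2 weakest and widest members of each list (all of lists up to 10), the 20 widest, and the 3 strong genes per direction with the largest called difference. The plain probe set of msp-32, the brightest genes by plain probe sets, the genes at the bounds, the steadiest genes and the neighbouring runs were named outside this rule, after their values were seen. The members and the 52 lists were chosen with earlier results of these data known. Alternatives changed the background and strong bounds, the probe set per gene, the normalization, the arrays included and the replicate block. Not every gene the naming rule picks is reported here.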

Additional observations from a re-analysis of the deposited data

How the results depend on the processing

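The near-background count of 8939 was 7477 to 10099 under the other bounds, probe set choices, normalization and left-out arrays. Without _x_at, _s_at and _f_at probe sets, chosen after seeing the data, it was 8100 of 13618 genes, and strong list members numbered 208, against 361 with all probe sets, with fewer genes measured. The 129 widely varying genes were 14 to 109 with an array left out and 93 to 140 otherwise. In ogt-1 mutants 3891 probe sets were called, 2710 to 4149 with an array left out (strong genes 434, 338 to 443). In oga-1 mutants 58 were called, 91 after quantile normalization of the 9 arrays and 9 to 89 with an array left out (9 and 13 without wild-type array 1 or 2, 21 without oga-1 array 1, 89 without ogt-1 array 1), and strong genes numbered 6, with 2 to 11. The causes of these shifts were not tested. With the replicate block, 4039 and 77 probe sets and 438 and 5 strong genes were called in ogt-1 and oga-1 mutants. Same-numbered arrays of different strains had deviations that correlated at -0.173 to 0.244 over 9 pairs, and 3 of 9 arrays correlated best with their own number, so the numbers do not show a pairing. Counts per list and orders of arrays were not recomputed under every setting. With plain probe sets, the strong members were 0 of 1 major sperm protein, 0 of 41 neuropeptide-like proteins and 0 of 70 MATH and BTB genes. They were also 11 of 93 cuticle collagens, 2 of 33 vulval genes and 1 of 29 synaptic genes.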

Other observations

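Families named by symbol prefix with at least 10 measured genes, chosen here after their values were seen, add to the picture. Of 165 such families, 101 had no strong gene and 8 had none near background. Galectins (lec), sugar-binding proteins, were strong in 8 of 12 and near background in none, with a median of 10.16. Vacuolar ATPase subunits (vha), which acidify organelles, were strong in 4 of 18 and near background in none, and nuclear pore proteins (npp) were strong in none and near background in 1 of 26. Nematode-specific peptides of the nspg family were strong in 6 of 12. Among signalling families, receptor-type and other guanylyl cyclases (gcy) were near background in 27 of 32, G protein alpha subunits (gpa) in 17 of 18, neuropeptide receptors (npr) in 40 of 44 and potassium channels of the twk family in 35 of 42. The pals family was near background in 22 of 23, and globins (glb) in 27 of 30.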
